A study of Mus musculus with 42 samples.

Results

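10 genes of the endothelium and endocardium were followed in paired left and right sides of the heart field of mouse embryos: Pecam1, Cdh5, Kdr, Flt1, Tek, Tie1, Etv2, Emcn, Sox18 and Nfatc1. They were chosen by name, as textbook genes of these cells, with earlier results of these data known. They were found by matching the Ensembl row names of the count table to mouse GENCODE symbols. All 10 of the 10 genes were matched, among 56953 rows in all. Each of the 10 had enough reads to be tested in every comparison, and no exon of another counted gene overlapped theirs. In GRCm39 they lie on chromosomes 11 (Pecam1), 8 (Cdh5), 5 (Kdr and Flt1), 4 (Tek and Tie1), 7 (Etv2), 3 (Emcn), 2 (Sox18) and 18 (Nfatc1), with Tek at 94627291 to 94763224 on the plus strand and Tie1 at 118328385 to 118347261 on the minus strand.

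The study asked how left-right patterning of the heart proceeds when the cilia of the node do not beat. Embryos were collected at E8.5i, a stage of heart looping at which the direction of the loop can be scored. The sample was dissected to be rich in the heart field behind the heart, in the dorsal pericardial wall, and the heart tube itself was cut away. Each embryo gave 1 left and 1 right library, and 21 embryos gave 42. The wild types were 5 Ccdc40+/+ embryos with rightward looping, 4 of them male. The rightward mutants were 11 Ccdc40lnks/lnks embryos with rightward looping, 6 of them male, and the inverted mutants were 5 Ccdc40lnks/lnks embryos with inverted looping, 3 of them male. By clustering the sidedness of gene expression in these same libraries, the study divides the rightward mutants further into situs solitus and heterotaxy, a division that the labels do not give, so that every mean and fitted value of this group covers both. Ccdc40 encodes a part of the ruler that spaces the motors of motile cilia, and the lnks allele is a chemically induced nonsense mutation in every cell of the embryo. All groups came from crosses of 1 mouse line, and the labels name no treatment. Wild types with inverted looping were not among the samples, so that genotype and looping direction cannot be told apart between the inverted mutants and the wild types.

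Endothelial cells line blood vessels, and endocardial cells are the endothelium inside the heart. Both arise from mesoderm in which Etv2, an ETS transcription factor, switches on the endothelial programme. Kdr and Flt1 encode receptors for VEGF, the main growth factor of forming vessels, and Kdr is the chief signalling receptor while Flt1 binds VEGF tightly and limits it. Tek encodes Tie2, the receptor for angiopoietins, and Tie1 its partner. Cdh5 and Pecam1 encode adhesion proteins of endothelial junctions, and Emcn a surface sialomucin. Sox18 is a transcription factor of vessel and lymphatic development. Nfatc1 is a transcription factor known for its role in the endocardium and the heart valves. In whole tissue, fewer cells of a type and less RNA per cell cannot be told apart.

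The libraries held 36073684 to 62970327 counted fragments, with a median of 43458644. Ccdc40 itself was at 15.2 to 26.5 counts per 1000000 (CPM) in the wild-type libraries and at 8.83 to 14.8 CPM in those of both mutant groups, so that the genotypes did not overlap. The sides of single embryos differed in the RNA of tissue marker genes in all 3 groups. The log2 ratio of right over left of summed yolk sac endoderm genes ran from −3.36 in the wild-type embryo 10_1 to 4.72 in the inverted mutant 10_3, and that of neural tube genes from −2.78 in the inverted mutant 32_2 to 3.19 in the rightward mutant 19_6. The wild-type embryo 10_1 had 803 CPM of summed heart tube muscle genes on the right against 2508 CPM on the left, and 131 CPM of summed neural tube genes against 20.96 CPM. The rightward mutant 2_2 had 243.2 CPM of heart tube muscle genes on the right against 898.7 CPM on the left.

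All 10 genes were detected in all 42 libraries, from 64 counts of Sox18 in the lowest library to 8479 counts of Kdr in the highest. The range of CPM over the 42 libraries was 23.8 to 43.7 for Pecam1, 44.0 to 76.6 for Cdh5, 18.3 to 32.8 for Emcn, 95.4 to 180.1 for Kdr and 24.4 to 52.0 for Flt1. It was 47.7 to 134.9 for Tek, 33.8 to 65.8 for Tie1, 18.1 to 57.0 for Etv2, 1.75 to 10.54 for Sox18 and 10.3 to 23.9 for Nfatc1. The defining genes of the endothelium were therefore present on both sides of every embryo.

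To compare genes with each other, levels were divided by the length of their exons, taken over every annotated transcript of a gene. This length ran from 1482 bases for Etv2 to 13660 bases for Flt1 and can exceed that of the transcripts expressed. On this scale of CPM per kilobase, the mean and SD over 42 libraries were 22.1 ± 6.08 for Etv2, 14.0 ± 2.95 for Tek, 14.0 ± 1.68 for Kdr, 13.2 ± 1.65 for Cdh5 and 9.97 ± 1.34 for Tie1. The other 5 were lower, at 3.73 ± 1.28 for Sox18, 3.64 ± 0.475 for Emcn, 3.11 ± 0.406 for Pecam1, 2.94 ± 0.383 for Flt1 and 2.25 ± 0.433 for Nfatc1. By annotated length, the inducer Etv2 and both angiopoietin and VEGF signalling receptors thus had the highest levels, and the endocardial factor Nfatc1 the lowest. This order depends on the exons annotated. Within embryos, Etv2 exceeded Tek in 20 of 21, and Cdh5 exceeded Tie1, Tie1 exceeded Sox18, Emcn exceeded Pecam1 and Flt1 exceeded Nfatc1 in 21 of 21. The order was less steady for Tek over Kdr (13 of 21 embryos), Kdr over Cdh5 (16 of 21), Sox18 over Emcn (9 of 21) and Pecam1 over Flt1 (14 of 21). Their mean log2 ratios were −0.01, 0.08, −0.01 and 0.08, each smaller than its SD between embryos. Whether these pairs differ was not tested. The coefficient of variation over libraries was 34.2% for Sox18, 27.6% for Etv2, 21.03% for Tek and 19.2% for Nfatc1, against 12.0% to 13.5% for the other 6 genes.

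**Figure D1:**
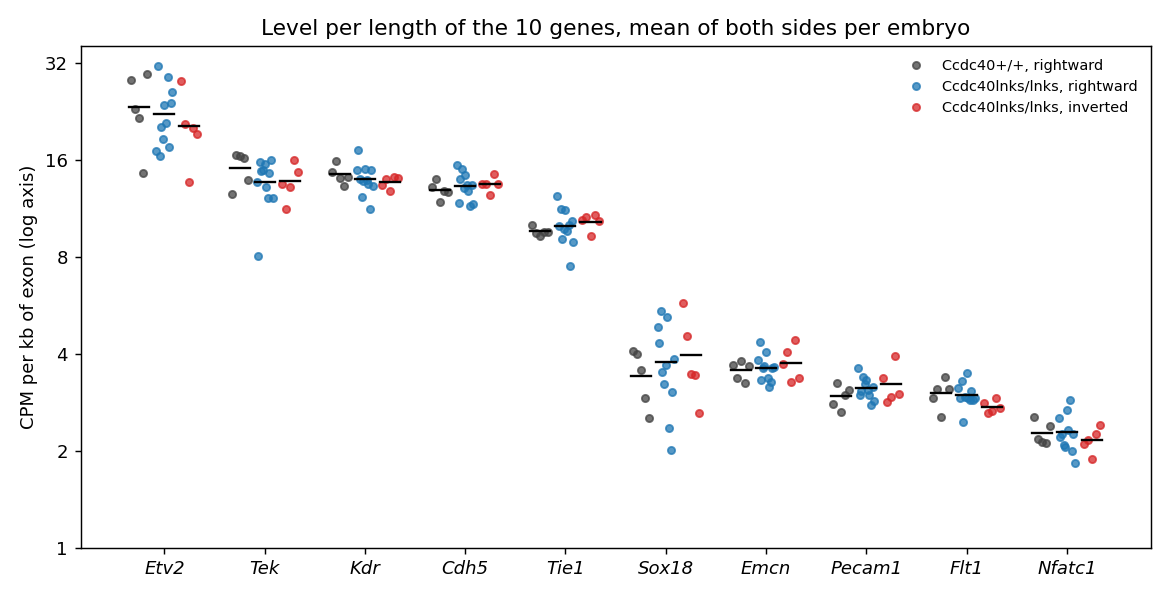
Level of each gene in CPM per kilobase of exon (log axis), as the mean of the left and right library of each embryo (points) and the mean of each group (bars), for 5 wild types, 11 rightward mutants and 5 inverted mutants. Etv2, Tek, Kdr, Cdh5 and Tie1 form the upper block, and Sox18, Emcn, Pecam1, Flt1 and Nfatc1 the lower one, in all 3 groups. Exon length covers every annotated exon of each gene.

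Tek had the clearest difference in sidedness between groups. In the wild types, Tek was at 88.9, 112.8, 134.9, 106.3 and 84.03 CPM on the left of embryos 7_1, 8_1, 10_1, 17_7 and 22_4, and at 61.9, 86.4, 63.0, 88.3 and 82.0 CPM on their right. In the inverted mutants it was at 74.2, 63.7, 60.7, 84.4 and 65.1 CPM on the left of embryos 2_7, 4_6, 10_3, 18_2 and 32_2, and at 87.3, 71.9, 97.8, 107.5 and 110.9 CPM on their right. The left was thus the higher side in 5 of 5 wild types and the right in 5 of 5 inverted mutants, and the ratios of the 2 groups did not overlap, a pattern that 2.06% of genes shared. Every embryo of 1 group opposite to every embryo of the other was seen in 0.494% of genes. In the 11 rightward mutants the left ranged from 47.7 to 106.4 CPM (median 87.8) and the right from 48.7 to 96.7 CPM (median 81.2), with the right higher in 6 of 11.

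The log2 ratio of right over left for Tek was −0.46 ± 0.40 (SD, n = 5) in the wild types, −0.08 ± 0.23 (n = 11) in the rightward mutants and 0.44 ± 0.27 (n = 5) in the inverted mutants. Tested directly in edgeR over all 42 libraries, the ratio was 0.90 higher in the inverted mutants than in the wild types (SE 0.17, adjusted p = 0.0165, Tek being the 1 gene of the 10 called where 0.513% of all genes were). This comparison was added after the values had been seen. Tek remained called in edgeR without 9 of the 10 embryos of these groups in turn, with a difference of 0.75 (adjusted p = 0.0413) without 10_1, and was lost without 32_2 (0.83, adjusted p = 0.06) and in males alone (0.89, adjusted p = 0.281). DESeq2 gave 0.91 (adjusted p = 7.52e-06).

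Against the rightward mutants, which have the same genotype, the Tek ratio of the inverted mutants was 0.52 higher (SE 0.14, unadjusted p = 0.00118, adjusted p = 0.118 in edgeR) and did not pass the threshold, while DESeq2 called it (0.53, adjusted p = 0.00971). Against the wild types, the ratio of the rightward mutants was 0.38 higher (SE 0.14, unadjusted p = 0.0133, adjusted p = 1 in edgeR), which did not pass, and was 0.22 higher without 10_1. The 3 differences share libraries and are not independent of each other. Within groups, edgeR did not call Tek in the wild types (−0.47, SE 0.14, unadjusted p = 0.0105, adjusted p = 1, and −0.30 without 10_1), in the rightward mutants (−0.08, SE 0.06) or in the inverted mutants (0.45, SE 0.10, adjusted p = 0.0586). In the inverted mutants DESeq2 called it (0.45, adjusted p = 8.27e-07), as did edgeR without the filter on low counts (0.44, adjusted p = 0.0048).

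Nfatc1, the endocardial factor, was the 1 gene of the 10 that edgeR called between the sides of the inverted mutants, where 2.04% of all genes were called and 1.72% were called higher on the right. On the left of embryos 2_7, 4_6, 10_3, 18_2 and 32_2 it was at 13.2, 14.9, 12.6, 12.9 and 13.5 CPM, and on their right at 18.8, 18.1, 16.1, 21.5 and 23.1 CPM. The right was higher in 5 of 5 and its lowest value lay above the highest left value. The fitted log2 fold change was 0.54 (SE 0.10, edgeR adjusted p = 0.0382), and the ratio per embryo was 0.53 ± 0.22 (SD, n = 5).

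The call on Nfatc1 did not outlast the loss of any 1 of the 5 inverted mutants, with edgeR adjusted p of 0.0538 to 0.168 and fold changes of 0.48 to 0.61, and in males alone it was 0.46 (adjusted p = 0.408). In the wild types Nfatc1 was at 16.9, 17.6, 22.3, 15.97 and 15.3 CPM on the left of embryos 7_1, 8_1, 10_1, 17_7 and 22_4 and at 21.9, 15.7, 10.3, 16.2 and 21.1 CPM on their right. Embryo 10_1 was alone among the wild types in a strong leftward ratio, and the fitted value was −0.08 (SE 0.22) with it and 0.17 (SE 0.12) without it. In the rightward mutants Nfatc1 was at 13.2 to 22.7 CPM (median 15.7) on the left and at 14.1 to 23.9 CPM (median 17.4) on the right, with the right higher in 8 of 11 and a fitted value of 0.13 (SE 0.08, edgeR adjusted p = 1).

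A call in the inverted mutants does not by itself set them apart from the other groups. The Nfatc1 ratio was 0.40 higher in the inverted than in the rightward mutants (SE 0.19, unadjusted p = 0.0509, edgeR adjusted p = 0.478) and 0.61 higher than in the wild types (SE 0.23, adjusted p = 0.226), of which 0.36 (SE 0.18) remained without 10_1. Neither difference passed. The left level of Nfatc1 was lower in the inverted than in the rightward mutants by a fitted −0.30 (SE 0.11, unadjusted p = 0.014, adjusted p = 0.52), and the right level differed by 0.10 (SE 0.15, and 0.05 without 18_2).

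**Figure D2:**
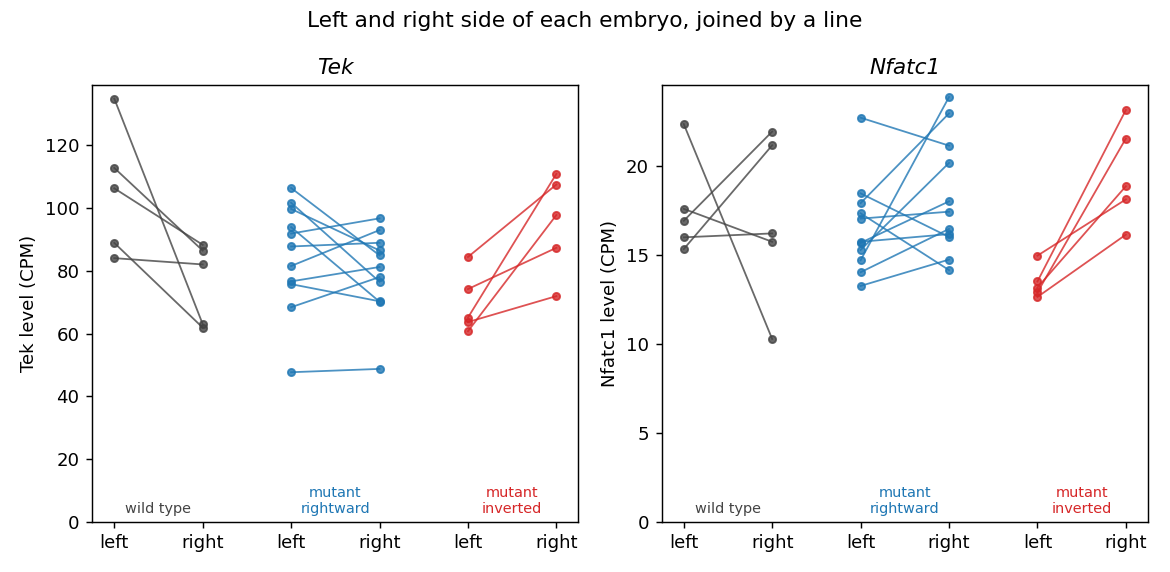
CPM of Tek and Nfatc1 on the left and right of each of 21 embryos, 1 line per embryo, in 5 wild types, 11 rightward mutants and 5 inverted mutants, with axes from 0. The lines of Tek fall from left to right in all 5 wild types and climb in all 5 inverted mutants, and those of Nfatc1 climb in all 5 inverted mutants.

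Marker genes of other tissues also differed between the sides of the same embryos. In the inverted mutants the summed CPM of 8 heart tube muscle genes was higher on the right in 5 of 5 embryos, with log2 ratios of 0.63 to 1.45, and edgeR called 6 of the 8 higher there. These ratios ranged from −1.64 to 1.00 in the wild types and from −1.89 to 1.38 in the rightward mutants. The sum of 6 heart field progenitor genes was also higher on the right in 5 of 5 inverted mutants (0.17 to 0.69), with 2 of 6 genes called higher. That of 3 neural tube genes was lower on the right in 5 of 5 (−2.78 to −0.59), with 1 of 3 called lower, and that of 4 somite genes was higher on the right in 1 of 5 (−1.498 to 0.195), with 1 of 4 called lower. The sum of 6 yolk sac endoderm genes was higher on the right in 3 of 5 inverted mutants (−1.05 to 4.72), with 0 of 6 called. That of 9 primitive blood genes was higher on the right in 2 of 5 (−1.08 to 0.98), with 0 of 9 called and a median fitted value of −0.29. No gene of these lists was at 0 in every library.

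Over the 21 embryos, the Nfatc1 ratio rose with the heart tube muscle ratio (Pearson's r = 0.70, permutation p = 0.00063, Spearman's rho = 0.74, permutation p = 2e-04) and declined with the neural tube ratio (r = −0.76, permutation p = 6e-05, rho = −0.74, permutation p = 0.00026). For Tek the r was 0.60 with heart tube muscle (permutation p = 0.00416, rho = 0.57, p = 0.00774) and −0.52 with neural tube (permutation p = 0.0168, rho = −0.41, p = 0.0622). With Benjamini-Hochberg adjustment over the 20 relations computed, the p for r were 0.0063 and 0.0012 for Nfatc1 and 0.0277 and 0.0559 for Tek. The other 16 relations had an adjusted p for r of 0.0559 to 0.996. Among them, the Cdh5 ratio rose with heart tube muscle by rank (rho = 0.57, adjusted permutation p = 0.0441, the same as for Tek; r = 0.52, adjusted p = 0.0559), while Emcn had the opposite sign (r = −0.47, adjusted permutation p = 0.0787, rho = −0.52, adjusted p = 0.0586). Without the 2 embryos farthest from the median on the marker axis, r was 0.72 and −0.71 for Nfatc1 and 0.61 and −0.39 for Tek. All of these relations were two-sided and were added after the values had been seen, and both measures of an embryo come from the same 2 libraries. Embryos were permuted over all groups together with group means left in, so that differences between groups enter these r and p.

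Within the 11 rightward mutants alone, r with heart tube muscle was 0.27 for Nfatc1 (permutation p = 0.422) and 0.02 for Tek (p = 0.956), and with neural tube it was −0.57 for Nfatc1 (p = 0.0659) and 0.00 for Tek (p = 0.99). The relations of Tek were thus not seen within that group, and those of Nfatc1 did not pass there. With 11 embryos, this does not show that a relation was absent. Of the 20 relations within that group, 3 had an unadjusted p for r under 0.05 and none passed after adjustment over the 20 (adjusted p = 0.264 for each of the 3). They were Flt1 with neural tube (r = −0.69, permutation p = 0.0172, rho = −0.49, p = 0.131), Kdr with heart tube muscle (r = −0.72, permutation p = 0.0306, rho = −0.36, p = 0.272) and Etv2 with heart tube muscle (r = −0.64, permutation p = 0.0495, rho = −0.46, p = 0.165). No r was computed within the wild types or within the inverted mutants, with 5 embryos each. The part of tissue content in the sidedness of Tek and Nfatc1 was not tested.

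**Figure D3:**
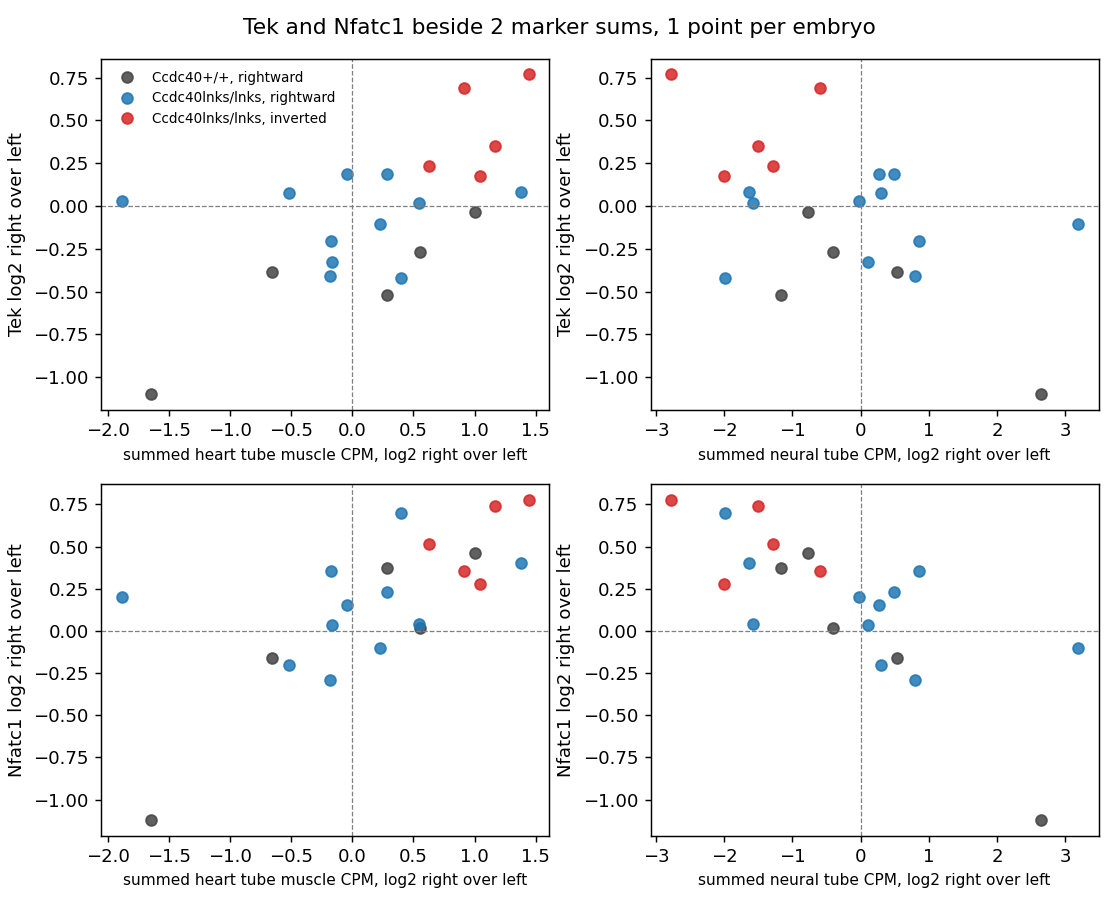
Log2 ratio of right over left of Tek (top) and Nfatc1 (bottom) against that of the summed CPM of 8 heart tube muscle genes (left) and 3 neural tube genes (right), 1 point per embryo, coloured by group. The 5 inverted mutants lie at heart tube muscle ratios of 0.63 to 1.45 and neural tube ratios of −2.78 to −0.59, and the wild-type embryo 10_1 lies far on the other side of 0 on both axes, at −1.64 and 2.64.

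The junction genes Cdh5 and Pecam1 leaned to the right in the inverted mutants without passing the threshold. Cdh5 was at 54.9, 57.3, 51.0, 52.2 and 53.5 CPM on the left of embryos 2_7, 4_6, 10_3, 18_2 and 32_2 and at 63.4, 60.5, 58.0, 74.3 and 64.6 CPM on their right, higher in 5 of 5. Its fitted log2 fold change was 0.26 (SE 0.07, edgeR adjusted p = 0.114), and DESeq2 called it (0.25, adjusted p = 0.00391). Pecam1 had ratios of 0.06 to 0.31 in these embryos, higher on the right in 5 of 5, and a fitted value of 0.20 (SE 0.07, edgeR adjusted p = 0.195).

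Right higher in every inverted mutant was seen in 4 of the 10 genes, namely Cdh5, Pecam1, Tek and Nfatc1, against 8.04% of all genes. A difference from the rightward mutants was not called for Cdh5 (0.13, SE 0.12, edgeR adjusted p = 0.777) or Pecam1 (0.14, SE 0.12, adjusted p = 0.757). Without 1 embryo in turn, it was 0.065 (without 18_2) to 0.17 (without 4_6) for Cdh5. For Pecam1 it was 0.09 (without 3_7) to 0.17 (without 10_3). In the wild types the ratios ran from −0.44 in embryo 10_1 to 0.53 in embryo 22_4 for Cdh5 and from −0.27 to 0.64 in the same embryos for Pecam1. The fitted values there were 0.03 (SE 0.13) and 0.07 (SE 0.13). They turned to −0.10 and −0.07 without 22_4 and were 0.15 and 0.16 without 10_1. Emcn went the other way in the inverted mutants, with ratios of −0.41 to 0.07 and a fitted −0.16 (SE 0.09, edgeR adjusted p = 0.484), the 1 gene of the 10 below 0 there on the TMM scale.

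Of the VEGF receptors, Kdr was higher on the left in 4 of 5 wild types and 10 of 11 rightward mutants and higher on the right in 4 of 5 inverted mutants. Its ratios were −0.17, −0.03, −0.22, −0.36 and 0.02 in wild-type embryos 7_1, 8_1, 10_1, 17_7 and 22_4 and 0.23, 0.47, 0.03, −0.18 and 0.21 in inverted embryos 2_7, 4_6, 10_3, 18_2 and 32_2. They ran from −0.40 to 0.40 in the rightward mutants, where the 1 positive ratio was that of embryo 2_2. The 3 groups overlapped, and no fit called Kdr: −0.16 (SE 0.07, edgeR adjusted p = 1) in the wild types, −0.12 (SE 0.06, adjusted p = 1) in the rightward mutants and 0.16 (SE 0.08, adjusted p = 0.404) in the inverted mutants. Without 1 inverted mutant in turn, the last was 0.09 (without 4_6) to 0.23 (without 18_2). The inverted mutants exceeded the rightward mutants by 0.27 (SE 0.10, unadjusted p = 0.0154, adjusted p = 0.327) and the wild types by 0.30 (SE 0.12, unadjusted p = 0.0198, adjusted p = 0.263).

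Flt1, the receptor that limits VEGF, did not share this order. Its fitted values were −0.05 (SE 0.18) in the wild types, 0.10 (SE 0.05) in the rightward mutants and 0.10 (SE 0.10) in the inverted mutants, with edgeR adjusted p of 1, 1 and 0.722. The wild-type value rested on embryo 10_1, where the left library held 45.02 CPM against 24.4 CPM in the right, and was 0.16 (SE 0.10) without it and −0.18 without 22_4. Tie1, the partner of Tek, was at 0.08 (SE 0.11), 0.14 (SE 0.07) and 0.13 (SE 0.08), none of them called, and its wild-type value was 0.19 without 10_1 and −0.01 without 22_4. Without 1 inverted mutant in turn, the inverted value was 0.04 to 0.18 for Tie1, lowest without 18_2, and 0.04 to 0.19 for Flt1. The Tie1 ratio differed between inverted mutants and wild types by 0.03 (SE 0.15), or −0.08 without 10_1, where that of Tek differed by 0.90.

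Etv2, the inducer of the lineage, was higher on the left in 4 of 5 wild types and 9 of 11 rightward mutants and higher on the right in 4 of 5 inverted mutants. In wild-type embryos 7_1, 8_1, 10_1, 17_7 and 22_4 its ratios were 0.29, −0.24, −0.19, −0.48 and −0.25. In inverted embryos 2_7, 4_6, 10_3, 18_2 and 32_2 they were 0.44, 0.60, 0.13, −0.10 and 0.33. The ratios of the rightward mutants spanned both, from −0.77 in embryo 19_6 to 0.67 in embryo 2_2. Fitted values were −0.18 (SE 0.11), −0.22 (SE 0.10) and 0.29 (SE 0.10) in the 3 groups, with edgeR adjusted p of 1, 1 and 0.22. DESeq2 called the last (0.29, adjusted p = 0.0363). The wild-type value was −0.29 without 7_1 and −0.11 without 17_7. The inverted mutants exceeded the rightward mutants by 0.50 (SE 0.17, unadjusted p = 0.00863, edgeR adjusted p = 0.268).

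Sox18 had the fewest reads and the widest ratios. They ran from −0.67 to 1.55 in the wild types, from −1.44 to 0.72 in the rightward mutants and from −0.65 to 0.73 in the inverted mutants, so that all 3 groups straddled 0. Its fitted values were 0.48 (SE 0.32), −0.22 (SE 0.17) and 0.01 (SE 0.20), none of them called. Single embryos moved these values. Leaving out each in turn gave 0.22 (without 22_4) to 0.77 (without 17_7) in the wild types, −0.31 (without 19_6) to −0.11 (without 22_1) in the rightward mutants and −0.17 (without 4_6) to 0.17 (without 10_3) in the inverted mutants.

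**Figure D4:**
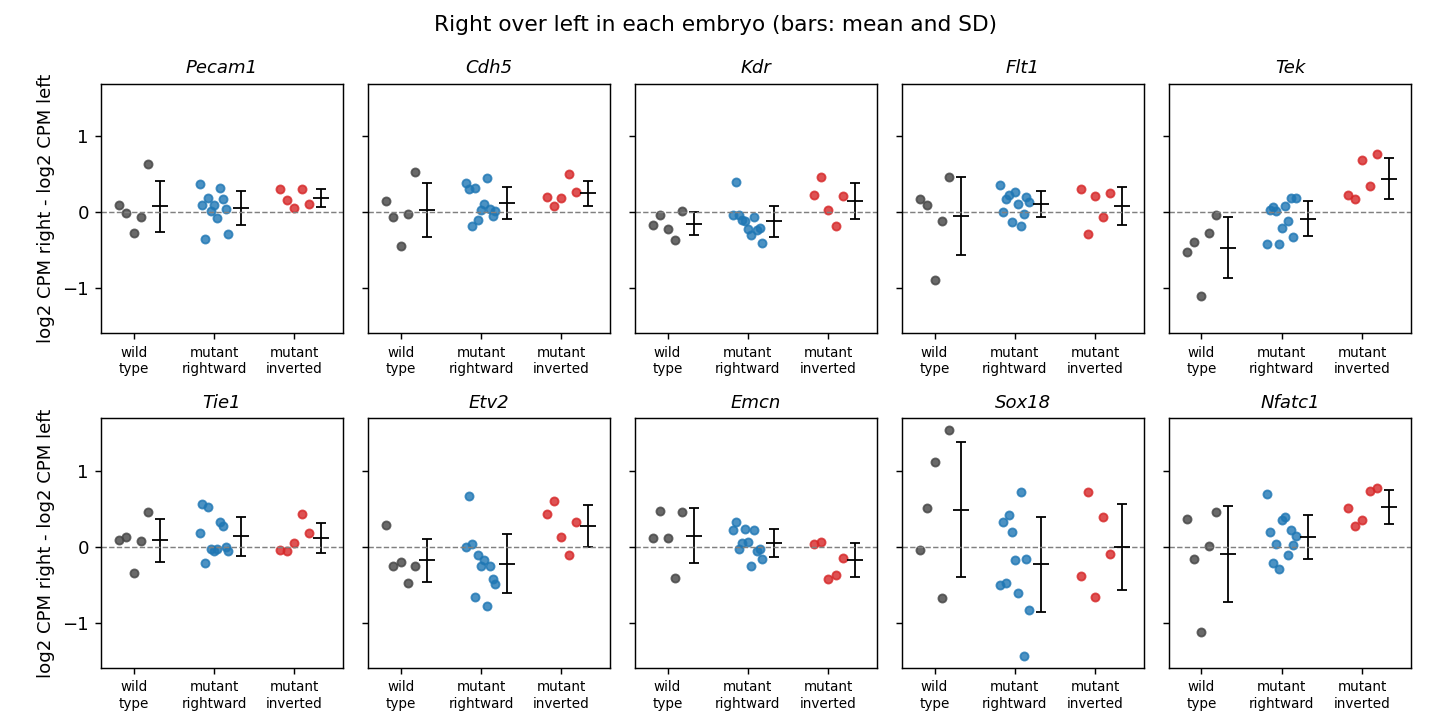
Log2 CPM on the right minus log2 CPM on the left for each of the 10 genes, 1 point per embryo, with the mean and SD of each group (5 wild types, 11 rightward mutants, 5 inverted mutants). The Tek points of the wild types lie below 0 and those of the inverted mutants above 0, while those of Sox18 spread from −1.44 to 1.55.

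Counted together, 0 of the 10 genes were called between the sides of the wild types, where edgeR called 0 of 23182 genes (0%) and DESeq2 called 20 genes. There 1 of the 10 (Tek) had an unadjusted p under 0.05 in edgeR, against 639 genes (2.76%) in all. In the rightward mutants 0 of the 10 were called, where 0.0263% of all genes were, and 1 of the 10 (Kdr) had an unadjusted p under 0.05, against 818 genes (3.59%) in all. DESeq2 called 32 genes there and 0 of the 10. In the inverted mutants 1 of the 10 was called, and 5 had an unadjusted p under 0.05, all higher on the right, against 15.1% of all genes in either direction and 9.29% higher. The median fitted log2 fold change of the 10 was 0.18 there, against −0.01 over all genes, with 9 of 10 above 0, or 8 of 10 when library size alone set the scale. DESeq2 called 4 of the 10 (Cdh5, Tek, Etv2 and Nfatc1), where it called 1187 of 22960 genes higher on the right and 568 lower.

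The summed CPM of the 10 genes was higher on the right in 5 of 5 inverted mutants, with log2 ratios of 0.15 to 0.33. It was higher on the right in 1 of 5 wild types (−0.48 to 0.22) and in 5 of 11 rightward mutants (−0.14 to 0.33). The ratios of the inverted mutants lay inside the range of the rightward mutants through embryo 2_2 alone, at 0.33, and the next highest rightward ratio, 0.085 in embryo 1_6, lay below all 5 inverted ones. Kdr and Tek had the most reads of the 10 and weigh most in the sum.

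The difference in sidedness between inverted and rightward mutants was called for 0 of the 10 genes in edgeR, where 0.311% of all genes were called. DESeq2 called it for 1 (Tek), where it called 380 of 26335 genes higher and 76 lower. An unadjusted p under 0.05 was reached by 3 of the 10 (Tek, Etv2 and Kdr), against 10.5% of all genes. Between rightward mutants and wild types the difference was called for 0 of the 10 and for 0% of all genes in edgeR and for 0 of the 10 in DESeq2, with 1 of the 10 (Tek) and 3.04% of all genes at an unadjusted p under 0.05.

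**Figure D5:**
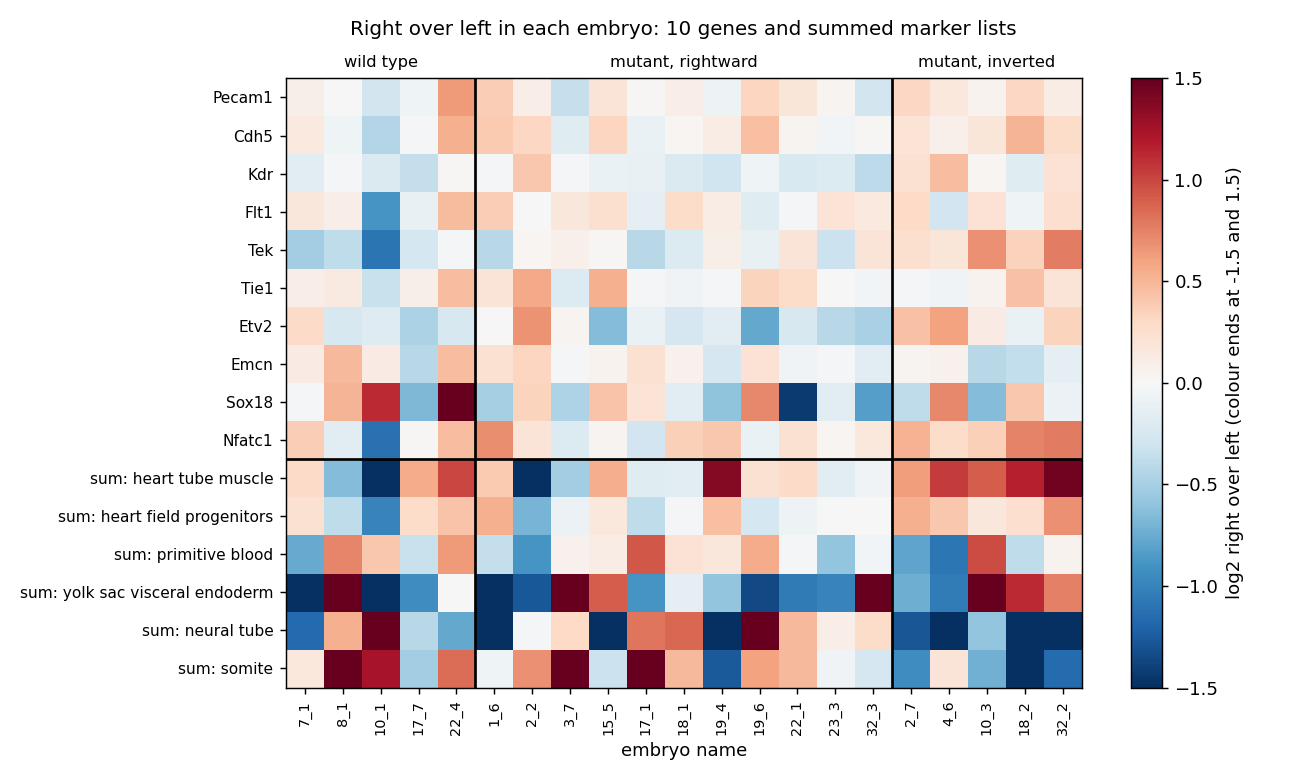
Log2 ratio of right over left in each of 21 embryos (columns, grouped) for the 10 genes and for the summed CPM of 6 marker lists (rows), red for higher on the right and blue for higher on the left, with colours ending at −1.5 and 1.5. The right is the higher side for heart tube muscle and the lower side for neural tube in all 5 inverted mutants, and the wild-type embryo 10_1 has the opposite colours.

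Levels on 1 side at a time were tested for inverted against rightward mutants and for rightward mutants against wild types, and not for inverted mutants against wild types. In edgeR, 0 of the 10 were called for inverted against rightward mutants on the left (0.0121% of all genes called) or on the right (0.00805%), and 0 of the 10 for rightward mutants against wild types on the left (0.0242%) or on the right (0.0121%). DESeq2 called 0 of the 10 in each. On the left, 4 of the 10 had an unadjusted p under 0.05 between inverted and rightward mutants, against 7.89% of all genes. They were Kdr (−0.16, SE 0.06), Etv2 (−0.38, SE 0.18), Nfatc1 (−0.30, SE 0.11) and Emcn (0.15, SE 0.07, and 0.066 without 18_2). For Tek, the left level of the rightward mutants was below that of the wild types by a fitted −0.32 (SE 0.14, unadjusted p = 0.0357, adjusted p = 0.978, and −0.21 without 10_1), and that of the inverted below that of the rightward mutants by −0.28 (SE 0.15, unadjusted p = 0.0688, adjusted p = 0.677). On the right, the Tek level of the inverted mutants was 0.26 above that of the rightward mutants in edgeR (SE 0.13, unadjusted p = 0.0496, adjusted p = 1), which did not pass. The left means of Tek were 105.4 ± 20.4 (n = 5), 84.7 ± 17.1 (n = 11) and 69.6 ± 9.68 CPM (n = 5) in wild types, rightward mutants and inverted mutants, and the right means 76.3 ± 12.9, 79.5 ± 13.3 and 95.1 ± 15.9 CPM.

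Most of the 10 genes varied together from library to library, as a description. With the group means removed, Pearson's r between pairs over 42 libraries had a median of 0.30 and was above 0 in 36 of 45 pairs, from −0.42 for Tek and Etv2 to 0.79 for Pecam1 and Cdh5. For the ratios over 21 embryos the median was 0.29, with 33 of 45 pairs above 0, from −0.30 for Tek and Sox18 to 0.85 for Cdh5 and Tie1. Correlations with the mean of the other 9 genes were 0.75 for Tie1, 0.72 for Cdh5 and 0.68 for Pecam1 in level, and 0.67, 0.76 and 0.72 in ratio. Those of Tek were 0.05 and 0.15, those of Etv2 0.10 and 0.10 and those of Sox18 0.31 and 0.15. Tek and Etv2 had closer partners among single genes. The r of Etv2 with Kdr was 0.48 in level and 0.67 in ratio, and that of Tek was 0.43 in level and 0.39 in ratio with Cdh5 and 0.34 and 0.56 with Flt1. The points share libraries, tissue content and scaling.

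Likeness to the 10 genes was ranked over genes with a mean of at least 1 CPM. The genes outside the 10 whose level was most like their mean over 42 libraries were Ptprb (r = 0.78), which encodes an endothelial phosphatase that acts on Tie2, Dysf (0.76), Nos3 (0.71), the endothelial nitric oxide synthase, Eng (0.71), Sox7 (0.70), Gja4 (0.70), Cd93 (0.68) and Sost (0.67). Those whose ratio was most like their mean ratio over 21 embryos were Sox7 (0.88), Afap1l1 (0.86), Dysf (0.85), Ptprb (0.84), Sost (0.81), Gja4 (0.80), Rasgrp3 (0.80) and Smtn (0.80). Ptprb, Dysf, Sox7, Gja4 and Sost were in both groups of 8.

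Promoters of 4 genes are shown for the motifs they hold or lack. Tie1 holds the forkhead motif, Emcn and Sox18 hold an ETS motif, and Tek holds none of those searched. Each stretch runs 5′ to 3′ on the strand of its gene in GRCm39, from 250 bases before to 50 bases after the start of the GENCODE canonical transcript. They lie at chr4:118347209-118347508 on the minus strand (Tie1), chr4:94627041-94627340 on the plus strand (Tek), chr3:137046544-137046843 on the plus strand (Emcn) and chr2:181313389-181313688 on the minus strand (Sox18). Capitals mark a match to the motifs searched, on either strand.
Tie1: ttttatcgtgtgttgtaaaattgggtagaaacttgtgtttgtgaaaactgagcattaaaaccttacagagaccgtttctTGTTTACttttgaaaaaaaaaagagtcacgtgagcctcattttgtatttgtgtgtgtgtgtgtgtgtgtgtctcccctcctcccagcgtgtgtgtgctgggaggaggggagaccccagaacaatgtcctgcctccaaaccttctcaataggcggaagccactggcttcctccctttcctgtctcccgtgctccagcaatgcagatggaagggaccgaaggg
Tek: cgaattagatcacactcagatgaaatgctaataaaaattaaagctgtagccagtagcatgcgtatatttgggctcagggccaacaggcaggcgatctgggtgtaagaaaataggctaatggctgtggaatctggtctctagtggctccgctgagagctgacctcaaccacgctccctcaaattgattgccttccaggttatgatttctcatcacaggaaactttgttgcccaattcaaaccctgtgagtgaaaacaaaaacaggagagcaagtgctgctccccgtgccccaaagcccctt
Emcn: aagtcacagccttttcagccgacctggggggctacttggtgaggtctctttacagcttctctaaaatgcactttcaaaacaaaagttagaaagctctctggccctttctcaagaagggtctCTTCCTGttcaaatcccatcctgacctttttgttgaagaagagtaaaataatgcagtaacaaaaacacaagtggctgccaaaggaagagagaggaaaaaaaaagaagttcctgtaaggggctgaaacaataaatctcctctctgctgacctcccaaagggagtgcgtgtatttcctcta
Sox18: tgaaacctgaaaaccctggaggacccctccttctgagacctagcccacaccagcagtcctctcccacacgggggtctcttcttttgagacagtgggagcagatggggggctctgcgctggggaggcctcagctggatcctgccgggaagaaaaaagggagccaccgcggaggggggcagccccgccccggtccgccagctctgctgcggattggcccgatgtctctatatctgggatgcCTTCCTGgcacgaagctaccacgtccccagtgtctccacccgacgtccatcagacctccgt

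The letters searched were CCGGAAG and CAGGAAG, which ETS factors such as Etv2 bind, and GTAAACA, bound by forkhead factors. CAGGAAG matched in 2 of the 9 promoters searched, on the minus strand relative to the gene, starting 129 bases before the transcript start in Emcn and 11 bases before it in Sox18. It was present in 12.3% of 21757 protein-coding promoters of the same length. CCGGAAG matched in 0 of the 9, against 10.3% of promoters, and GTAAACA in 1 of the 9, 171 bases before the start of Tie1 on the minus strand, against 3.1%. Either ETS motif was in 2 of the 9 against 21.3% of promoters. A match in such a window describes the letters and not the binding of a factor.

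Beyond the 10 genes, 52 further genes of the endothelium were tested in 5 lists: 14 transcription factors, 11 ligands and coreceptors of VEGF and angiopoietin, 17 surface and junction genes, 7 arterial and venous genes and 3 endocardial genes. In the inverted mutants edgeR called 2 of the 52 higher on the right and 0 lower, against 1.72% of all genes called higher, and both were among the 14 transcription factors. Of the 52, 13 had an unadjusted p under 0.05, 9 of them higher and 4 lower, against 15.1% of all genes in either direction and 9.29% higher. Mef2c, a factor of heart muscle and endothelium, was 0.73 higher on the right (SE 0.09, adjusted p = 0.00759), and Hhex, a homeobox factor of early blood vessels and endoderm, 1.04 higher (SE 0.19, adjusted p = 0.0342). The median over the 52 was 0.04, against −0.01 over all genes, and 33 of 52 were above 0. The 7 arterial and venous genes and the 3 endocardial genes had 0 called and 0 at an unadjusted p under 0.05 in edgeR there, and the median of the 7 was 0.01. In the wild types 2 of the 7, Dll4 (0.49, SE 0.19) and Gja5 (0.58, SE 0.22), reached an unadjusted p under 0.05, both higher on the right, against 2.76% of all genes, with a median of 0.28 over the 7. In the rightward mutants Gja4 (0.25, SE 0.09) and Gja5 (0.29, SE 0.12) did so, against 3.59%, with a median of 0.23, and none of these passed the adjusted threshold.

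The ligands of the Tie2 pathway were in the list of 11, of which 0 were called and 5 had an unadjusted p under 0.05, all higher on the right of the inverted mutants, against 9.29% of all genes higher at that p. Angpt1, the activating ligand of Tie2, was at 0.28 (SE 0.06, edgeR adjusted p = 0.0608), Angpt2, its context-dependent ligand, at 0.56 (SE 0.14, adjusted p = 0.096), and Nrp1, a VEGF coreceptor, at 0.31 (SE 0.06, adjusted p = 0.0519). In every other comparison 0 of the 52 were called in edgeR, leaving aside the added comparison of inverted mutants with wild types, which was not examined for these genes. Pgf, a ligand of Flt1, was at −0.37 (SE 0.10, unadjusted p = 0.00767, adjusted p = 1) in the wild types and −0.17 (SE 0.06, unadjusted p = 0.00986, adjusted p = 1) in the rightward mutants, and its ratio was 0.42 higher in the inverted than in the rightward mutants (SE 0.11, unadjusted p = 0.00115, adjusted p = 0.117).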

How the data were processed

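PolyA RNA of paired left and right heart field sides from 21 embryos was sequenced by the study after a low-input, PCR-amplified library preparation, so that counting error is not the only technical error. The deposited values are raw counts per gene that the authors made from their reads. The submitters' processing notes name FastQC, Picard, STAR, featureCounts of Subread 2.0.6, edgeR, DESeq2 and the build GRCm39, without roles, and strand use in counting is not given in the sources used here. The table held 56953 Ensembl identifiers, of which 56310 were in GENCODE M39, which gave symbols, exon lengths and transcript starts. All 42 columns were matched to samples by library name.

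Groups were taken from the labels (genotype and looping direction). The laterality clusters of the paper are not in the labels and were not used. Counts were normalised by TMM in edgeR 4.0.16 (R 4.3.3) and genes were kept by filterByExpr with a minimum count of 5. Right over left was tested within each group by the quasi-likelihood test with the embryo as a block, the difference between groups as an interaction in all 42 libraries, and the level on each side over 21 libraries with sex as a covariate. P-values were adjusted by Benjamini-Hochberg over all genes of a fit, with a threshold of 0.05. SE is the log2 fold change divided by the square root of the F statistic. CPM are on TMM-scaled library sizes, and per-embryo log2 ratios used a prior count of 2. Relations over embryos were tested with 100000 permutations, and those over all 21 embryos were not kept within groups.

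Both sides of an embryo share its name in the labels, and their deviations from group means over 2000 genes correlated with a median r of 0.31 (−0.09 to 0.75 over 21 pairs). No 2 libraries agreed within sampling noise. The fits were also run on simulated counts. These held no embryo effect, so that they could not check the embryo block. Alternatives were DESeq2 1.42.0, other scaling, no filter, males alone, no block, no sex term, another prior count and leaving out each embryo. All 10 genes are named, as were further endothelial genes past the threshold, or up to 3 with the smallest p where none passed. The genes and lists were chosen with earlier results of these data known. RNA and library preparation batches are not in the labels and were not modelled. The promoter of 1 of the 10 genes is not reported here.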

Additional observations from a re-analysis of the deposited data

Results flagged for a closer look

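Tek is listed because all 5 wild types were higher on the left and all 5 inverted mutants higher on the right. The mean log2 ratio of right over left was 0.905 higher in the inverted mutants, and the fitted difference was 0.904 (edgeR adjusted p = 0.0165, in a comparison added after the values had been seen). Every embryo of 1 group opposite to every embryo of the other was seen in 0.494% of all genes.

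Single libraries stood apart in 2 of the 60 sets of values examined for the 10 genes, and chance alone flags about 1 in 20 sets. The sets were left levels, right levels and ratios of the wild types and of the inverted mutants. The rightward mutants were not examined in this way. Flt1 on the right of wild-type embryo 10_1 was at 24.35 CPM, below the 42.2 to 49.5 CPM of the other wild types. Emcn on the right of wild-type embryo 17_7 was at 18.33 CPM, below the 25.3 to 28.1 CPM of the others.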

How the results depend on the processing

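Of the values of single genes among the 10 in the 9 planned comparisons, 1620 of those under another setting kept their direction and side of the threshold, 5 newly passed, 6 no longer passed and 79 changed sign without a call on either side, and none reversed a call. DESeq2 called more genes in every comparison but that of sidedness between rightward mutants and wild types, with 0 in both tools: between sides 20 in wild types, 32 in rightward and 1755 in inverted mutants (4 of the 10 genes), for the difference of inverted from rightward mutants 456 (1 of the 10) and from wild types 911, and for levels of inverted against rightward mutants 104 on the left and 18 on the right and of rightward mutants against wild types 20 on the left and 6 on the right. Without the filter on low counts the numbers were 2 in wild types, 942 in inverted mutants (2 of the 10), 131 for the difference of inverted from rightward mutants, and 11 on the left and 8 on the right for rightward mutants against wild types. With males alone they were 1 between sides in rightward and 53 in inverted mutants (0 of the 10), 7 and 3 for the differences of inverted from rightward mutants and from wild types (0 of the 10 in both), and 1, 0, 0 and 0 for the 4 levels; fewer embryos entered these fits. Without the embryo block the numbers were 1 in rightward mutants, 305 in inverted mutants and 17 for their difference, and no call on the 10 genes changed. Without sex in the model, 0 genes were called for the right level of inverted against rightward mutants. Leaving out each embryo in turn gave 2 to 8 genes between sides in rightward mutants, 138 to 446 in inverted mutants (0 of the 10 each time), 18 to 158 for the difference of inverted from rightward mutants and 17 to 641 from wild types (0 to 1 of the 10). For levels it gave 2 to 6 on the left and 0 to 4 on the right for inverted against rightward mutants, and 1 to 11 on the left and 0 to 12 on the right for rightward mutants against wild types. The cause of these shifts was not tested. The median over all genes moved by less than 0.1 (log2) under each scaling. Sox18 had the fewest reads, from 64 counts a library, and what depth adds to its error was not tested.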
